A study of Mus musculus with 16 samples.

Results

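Goblet cells are the mucus-secreting cells of the intestinal epithelium. They package the gel-forming mucin Muc2 with a set of smaller proteins that cross-link, cut or coat the mucus, and with peptides and proteases that are released beside it. In the colon these products build an inner mucus layer that keeps bacteria away from the epithelium. Here 10 genes for such products were read out of the 54123 genes of the tables: Fcgbp, Clca1 and Zg16 (proteins of the mucus gel), Agr2 (a protein of the endoplasmic reticulum needed for mucin folding), Tff3, Retnlb, Spink4 and Reg4 (small secreted proteins), and Klk1 and Tpsg1 (serine proteases). The rule that lists them uses their names and no measured value, but the genes were chosen with earlier results of these data known. Each was read as the reads summed over its transcripts.

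Transcripts were measured in 16 RNA-seq libraries of mouse colon organoids, 8 groups of 2 libraries with replicate numbers 1 and 2. Organoids came from the first centimetre of the proximal or the last of the descending (distal) colon of female mice of 8 weeks, all heterozygous for a Cre-inducible BrafV600E allele and for a tdTomato reporter, with no Cre named for these groups. They carried Scramble-sgRNA (the control guide) or Cdx2-sgRNA, which targets the intestinal homeobox factor Cdx2, each delivered with Cas9 by lentivirus and selected with blasticidin. After 4 months of culture, all spent 2 days in WENR-plus medium (Wnt3a, EGF, Noggin and R-spondin 1) and then 3 days in either WENR-plus or WENR-minus medium, which lacks these factors. The Cdx2-sgRNA organoids were grown out from single cells with frameshifts in both alleles, and no such step is described for the Scramble-sgRNA organoids, so an effect of the guide and one of growing out a clone cannot be told apart. The methods speak of 2 independent mice. The replicate number was taken as the mouse, which the labels do not say outright.

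The libraries held 12465194 to 18922143 reads. Levels are given as CPM, the reads of a gene relative to its library's size after TMM scaling. Cdx2 itself stood at 202 and 151 CPM in proximal Scramble-sgRNA organoids in WENR-minus, against 73.8 and 71.0 CPM with Cdx2-sgRNA, and at 112 and 110 against 126 and 86.0 CPM in the distal ones. A frameshift need not lower the transcript, so the level does not check the edit. Summed over 6 epithelial genes, Cdx2 among them, every library held at least 2410 CPM. In proximal WENR-minus organoids this sum was 9710 to 10500 CPM with Scramble-sgRNA and 5890 to 5990 CPM with Cdx2-sgRNA. There 3 of the 6 genes were called lower by the test given below, beside 12.1% of all genes tested. Of the 8 genes of other cell types, Cd3e, Col1a1, Col3a1 and Acta2 reached at most 7 reads in a library and the highest, Cd68, 188. In every distal group each of the 9 tested genes was higher in replicate 1 than in replicate 2 (36 of 36 pairs, ratio 1.11 to 11.3, median 2.52). This held for 15 of 18 pairs in proximal Cdx2-sgRNA organoids (median ratio 2.19) and for 3 of 18 in proximal Scramble-sgRNA organoids (ratio 0.471 to 1.45, median 0.799).

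All 10 genes are protein-coding. On GRCm38, Fcgbp (ENSMUSG00000047730.17) lies at chr7:28071236-28120862, Clca1 at chr3:145003817-145032776, Zg16 at chr7:127050156-127087328 and Agr2 at chr12:35992907-36004087. Tff3 lies at chr17:31125306-31129646, Retnlb at chr16:48816856-48818892, Spink4 at chr4:40920052-40931395 and Reg4 at chr3:98222156-98236748. The proteases Klk1 and Tpsg1 lie at chr7:44225360-44229618 and chr17:25369273-25374442. Genes overlap Zg16, Klk1 and Tpsg1 on the opposite strand only, and with a stranded kit these held few reads. The largest, Cacna1h beside Tpsg1, had 475 reads over all libraries.

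Promoters of 5 of the 10 genes were in the RefSeq-based table (GRCm38.p6), those of Fcgbp, Agr2, Reg4, Klk1 and Tpsg1. These 5 are shown because the table holds them, and all but Reg4 passed the test for Cdx2-sgRNA in proximal organoids. CATAAA, the core of a Cdx-type site, and the TATA box TATAAA were searched on both strands in the 250 bases before the start, and matches are in capitals. Each sequence runs 5′ to 3′ on the strand of its gene.
Fcgbp, chr7:28070986-28071235 (+): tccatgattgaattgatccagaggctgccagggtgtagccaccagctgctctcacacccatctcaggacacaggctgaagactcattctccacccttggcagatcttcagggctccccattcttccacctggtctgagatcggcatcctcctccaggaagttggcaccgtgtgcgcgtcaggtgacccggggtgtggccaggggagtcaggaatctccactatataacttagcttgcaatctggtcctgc
Agr2, chr12:35992675-35992924 (+): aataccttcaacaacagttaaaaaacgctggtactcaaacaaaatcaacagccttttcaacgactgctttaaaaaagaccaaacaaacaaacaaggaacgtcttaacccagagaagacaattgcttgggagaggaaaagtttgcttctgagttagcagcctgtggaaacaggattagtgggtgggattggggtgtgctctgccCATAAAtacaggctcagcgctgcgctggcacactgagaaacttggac
Reg4, chr3:98221906-98222155 (+): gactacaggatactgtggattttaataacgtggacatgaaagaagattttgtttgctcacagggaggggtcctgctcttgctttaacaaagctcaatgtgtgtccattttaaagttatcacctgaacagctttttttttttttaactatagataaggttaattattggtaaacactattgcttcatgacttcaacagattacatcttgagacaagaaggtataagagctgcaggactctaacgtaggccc
Klk1, chr7:44225110-44225359 (+): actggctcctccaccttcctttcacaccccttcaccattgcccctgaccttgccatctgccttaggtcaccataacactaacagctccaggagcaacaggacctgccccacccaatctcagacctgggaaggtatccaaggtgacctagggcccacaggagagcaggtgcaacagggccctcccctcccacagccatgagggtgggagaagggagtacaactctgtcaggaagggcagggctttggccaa
Tpsg1, chr17:25369023-25369272 (+): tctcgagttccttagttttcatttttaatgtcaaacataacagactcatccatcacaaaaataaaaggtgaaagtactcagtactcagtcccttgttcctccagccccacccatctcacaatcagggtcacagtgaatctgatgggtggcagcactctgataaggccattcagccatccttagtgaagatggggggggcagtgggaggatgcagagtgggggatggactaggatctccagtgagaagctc
Agr2 held 1 CATAAA, which begins 47 bases before its RefSeq start, and the other windows held neither motif. Over all 32851 promoter windows, 10.8% held CATAAA or its reverse complement TTTATG, and 12.4% held TATAAA or TTTATA. A match is a string of letters and no measured site.

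Levels between genes were compared as TPM, an abundance scaled by transcript length and library. Summed over the 10 genes, proximal Scramble-sgRNA libraries held 6355 and 8486 TPM in WENR-minus, and 2253 and 3504 TPM in WENR-plus. Proximal Cdx2-sgRNA libraries held 142 and 42.8 TPM in WENR-minus, and 96.4 and 49.1 TPM in WENR-plus. The lowest sum in a distal library, 2640 TPM, was above all 4 of these. Zg16, a lectin-like protein of mucus that binds the wall of Gram-positive bacteria, led the sum in both Scramble-sgRNA groups in WENR-minus, at 28.8 to 42.2% in proximal and 41.1 to 45.1% in distal libraries. In WENR-plus its share was 1.24 to 1.37% and 1.41 to 5.08%, and Spink4, a Kazal-type protease inhibitor, led at 50.7 to 59.7% and 45.0 to 47.0%. In Scramble-sgRNA organoids, removal of the growth factors thus went with another make-up of the products, and not only with another total. In distal Cdx2-sgRNA libraries the share of Zg16 was 24.4 to 32.5% in WENR-minus and 0.742 to 1.45% in WENR-plus. In replicate 1, however, Spink4 led in both media. There the 10 genes summed to 14215 TPM in WENR-minus and 15259 TPM in WENR-plus. TPM is not TMM-scaled, and the TMM factors of these libraries were 0.700 and 1.09, so their sums give no direction between the media. In proximal Cdx2-sgRNA libraries the share of Zg16 was 9.88 to 14.6% in WENR-minus and 12.3 to 19.3% in WENR-plus.

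**Figure D1:**
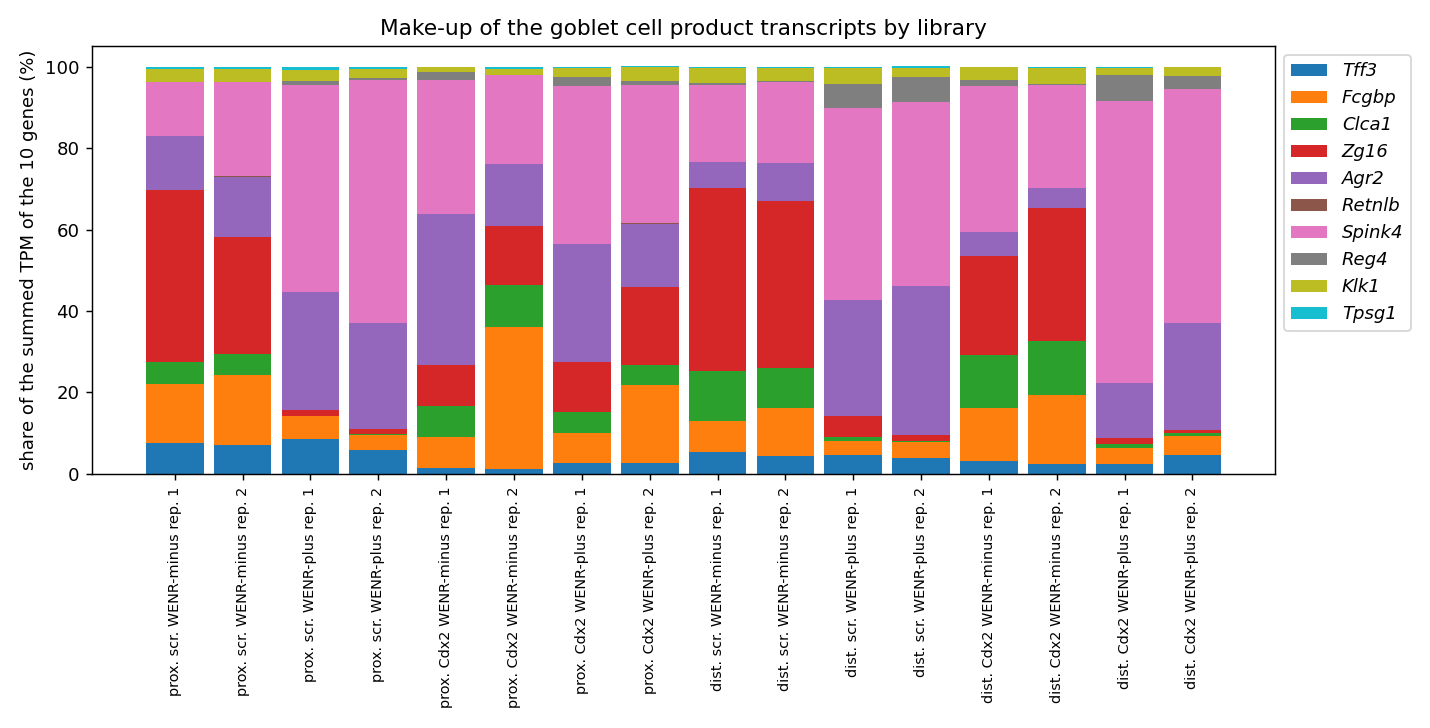
Share of each gene in the summed TPM (a length-scaled abundance) of the 10 goblet cell product genes, in percent, with 1 bar for each of the 16 libraries (prox., proximal; dist., distal; scr., Scramble-sgRNA; rep., replicate). Zg16 takes 28.8 to 45.1% in the Scramble-sgRNA libraries in WENR-minus and at most 5.08% in those in WENR-plus, where Spink4 leads.

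Retnlb, a resistin-like protein of goblet cells with activity against bacteria, was close to absent. It had 6 reads in proximal Scramble-sgRNA WENR-minus replicate 2, 1 read in proximal Scramble-sgRNA WENR-plus replicate 2, 1 read in proximal Cdx2-sgRNA WENR-plus replicate 2, and none in the other 13 libraries. It did not pass the filter on low counts and was not tested. The other 9 genes passed it, and 4 of them (Tff3, Reg4, Klk1 and Tpsg1) had under 10 reads in at least 1 library and passed it through the groups in which they are high. At this depth a library with 0 reads allows up to 3, so low expression of Retnlb was not detectable.

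**Figure D2:**
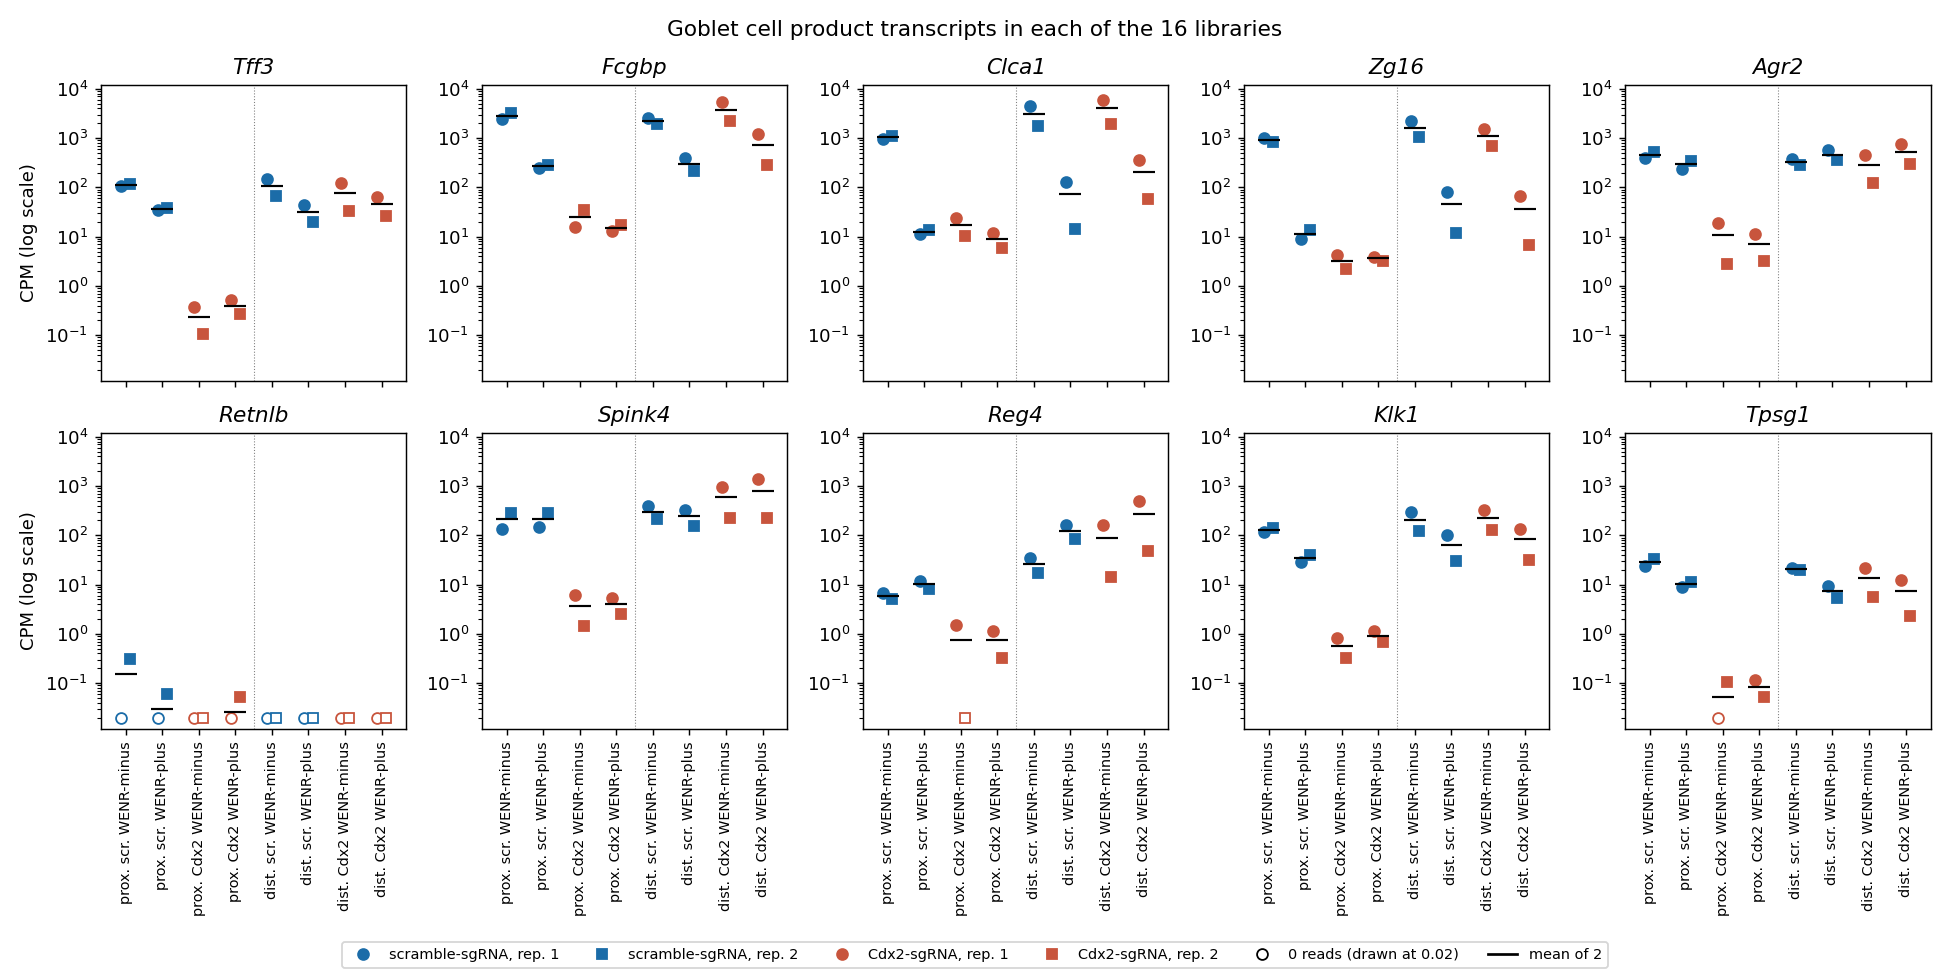
CPM (log scale) of the 10 genes in each library, by group, with circles for replicate 1, squares for replicate 2, blue for Scramble-sgRNA, red for Cdx2-sgRNA, a bar for the mean of 2 libraries and open symbols for 0 reads. Tff3 lies between 0.106 and 0.522 CPM in the 4 proximal Cdx2-sgRNA libraries and at or above 19.5 CPM in the other 12.

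The first question was what Cdx2-sgRNA did to these products in proximal organoids. In WENR-minus, 8 of the 9 tested genes were lower with Cdx2-sgRNA than with Scramble-sgRNA and none was higher (edgeR quasi-likelihood test, adjusted p under 0.05 and absolute log2 fold change over 1). Of all 15289 genes tested, 12.1% were called lower, 9.04% higher and 21.2% in either direction. The median log2 fold change of the 9 genes was -6.80, beside -0.000325 over all genes. In bulk RNA, fewer goblet cells and less product RNA per cell cannot be told apart.

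Fcgbp, a large mucus protein with repeated von Willebrand D domains that is bound to Muc2, stood at 2413 and 3227 CPM with Scramble-sgRNA and at 15.9 and 34.5 CPM with Cdx2-sgRNA (log2 fold change -6.80 with an SE of 0.77, adjusted p = 9.02e-05). Clca1, a metalloprotease that processes Muc2, stood at 974 and 1094 CPM against 23.9 and 10.5 CPM (log2 fold change -5.92 ± 1.21, adjusted p = 0.00365). Zg16 fell from 1013 and 831 CPM to 4.15 and 2.17 CPM (-8.21 ± 1.28, adjusted p = 0.000688). For all 3 mucus gel proteins the groups lay far apart.

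Agr2, the disulfide isomerase family protein that assists mucin folding, stood at 394 and 523 CPM with Scramble-sgRNA and at 18.9 and 2.75 CPM with Cdx2-sgRNA (log2 fold change -5.43 ± 0.98, adjusted p = 0.00178). The lower of its Cdx2-sgRNA libraries held 52 reads and the higher 255, so the size of the fall differed between the replicates.

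Tff3, the trefoil peptide of goblet cells that aids epithelial repair, had the lowest fitted value of the set. It stood at 106 and 120 CPM against 0.371 and 0.106 CPM, which were 5 and 2 reads (log2 fold change -8.96 ± 1.01, adjusted p = 8.43e-05). Spink4 fell from 136 and 289 CPM to 6.08 and 1.43 CPM (-5.87 ± 1.13, adjusted p = 0.00263). Reg4, a C-type lectin-like secreted protein, was already low in the controls at 6.69 and 5.21 CPM and stood at 1.48 and 0 CPM with Cdx2-sgRNA. Its groups did not overlap, and its log2 fold change of -3.17 ± 1.57 did not pass the test (adjusted p = 0.149). With the replicate number as a block it was -3.52 (adjusted p = 0.0306). Its weakest value with 1 library left out was -2.0. Without Cdx2-sgRNA replicate 1 the library left held 0 reads, so that no fold change is given.

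Both proteases fell as well. Klk1, a tissue kallikrein, stood at 116 and 141 CPM against 0.816 and 0.317 CPM (log2 fold change -7.88 ± 1.05, adjusted p = 0.00025). Tpsg1, a membrane-anchored tryptase, stood at 24.1 and 32.7 CPM, while its Cdx2-sgRNA libraries held 0 and 2 reads. With 3 reads per library taken as the level there, Tpsg1 was 149-fold lower (adjusted p = 0.000266 in the fit). A library with 1 or 2 reads can come from a level above 3, so the folds given for Tpsg1 at 3 reads are no strict bounds. In WENR-plus its Cdx2-sgRNA libraries held 2 and 1 reads against 8.98 and 11.5 CPM in the controls, 61.7-fold lower at 3 reads (adjusted p = 0.00143).

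In WENR-plus, 6 of the 9 genes were lower in proximal Cdx2-sgRNA organoids and none higher, where 8.95% of all genes were called lower, 6.93% higher and 15.9% in either direction. Tff3 stood at 34.2 and 38.6 CPM against 0.522 and 0.264 CPM (log2 fold change -6.52 ± 0.90, adjusted p = 0.00054). Spink4 stood at 146 and 282 CPM against 5.45 and 2.48 CPM (-5.76 ± 1.12, adjusted p = 0.00386), and Agr2 at 235 and 349 CPM against 11.1 and 3.17 CPM (-5.36 ± 0.98, adjusted p = 0.00279). Spink4 and Agr2 thus had nearly the same fold changes in both media. For Tff3 the difference between the media in the response to the guide was -2.44 ± 1.58 (adjusted p = 0.417) and did not pass the test. Klk1 stood at 28.9 and 39.5 CPM against 1.16 and 0.687 CPM (-5.21 ± 0.93, adjusted p = 0.0025). Fcgbp stood at 253 and 288 CPM against 13.3 and 17.2 CPM (-4.15 ± 0.69, adjusted p = 0.00159).

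No call was made in WENR-plus for 3 genes. Clca1 stood at 11.1 and 13.5 CPM with Scramble-sgRNA and at 12.1 and 5.81 CPM with Cdx2-sgRNA, and the groups overlapped (log2 fold change -0.47 ± 1.03, adjusted p = 0.779). Zg16 stood at 9.03 and 13.8 CPM against 3.94 and 3.28 CPM (-1.66 ± 1.03, adjusted p = 0.266). Reg4 stood at 11.9 and 8.22 CPM against 1.16 and 0.317 CPM (-3.78 ± 1.48, adjusted p = 0.0849), and with the replicate block at -4.05 (adjusted p = 0.0164).

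**Figure D3:**
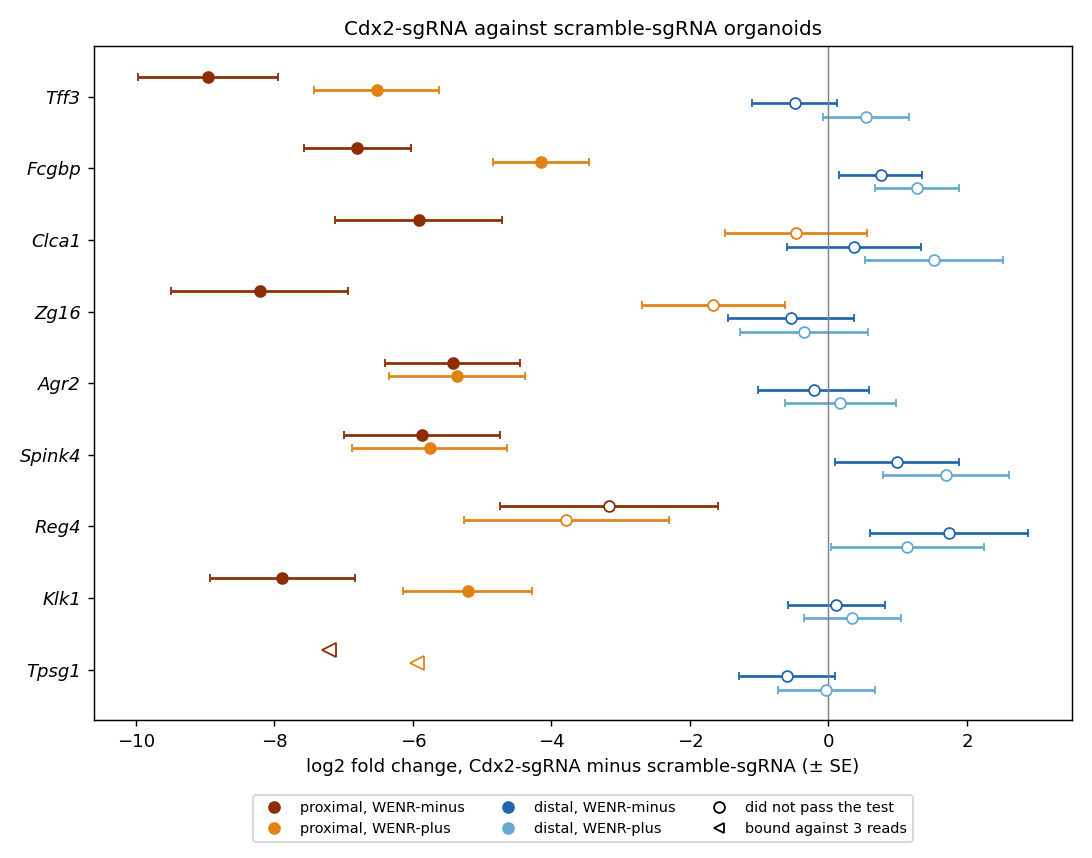
Log2 fold change ± SE of Cdx2-sgRNA against Scramble-sgRNA organoids for the 9 tested genes, by region and medium, with filled circles for genes that passed the test, open circles for those that did not, and triangles for Tpsg1 at its bound against 3 reads. The proximal values lie between -8.96 and -0.47 and the distal ones between -0.60 and 1.74.

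In distal organoids none of the 9 genes was called with Cdx2-sgRNA. Of all genes, 5.24% were called in WENR-minus (2.24% higher, 3.00% lower) and 0.262% in WENR-plus (0.137% higher, 0.124% lower). None of the 9 had an unadjusted p under 0.05 in WENR-minus, nor in WENR-plus, and DESeq2 called none. The log2 fold changes ran from -0.60 (Tpsg1) to 1.74 (Reg4) in WENR-minus, with adjusted p between 0.367 and 0.953, and from -0.35 (Zg16) to 1.71 (Spink4) in WENR-plus, with adjusted p between 0.803 and 1. The SE of these values was 0.60 to 1.14, and values as large as 1.74 and 1.71 did not pass, so changes of that size were not detectable in every gene. In all 9 genes the groups overlapped in both media, whereas of all genes 56.4% in WENR-minus and 37.1% in WENR-plus had groups that did not overlap. Within replicate numbers, 4 genes were higher and 3 lower with Cdx2-sgRNA in both replicates in WENR-minus, and 5 higher and 1 lower in WENR-plus, such as Clca1 with ratios of 2.75 and 4.05. With the replicate block none was called in either medium, whereas a fit with no filter on low counts called some in each, as counted in the last section.

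Fcgbp stood at 2548 and 1934 CPM in distal Scramble-sgRNA organoids in WENR-minus and at 5301 and 2270 CPM with Cdx2-sgRNA. Tff3 stood at 149 and 66.5 CPM against 122 and 32.5 CPM, and Klk1 at 291 and 124 against 321 and 129 CPM. In WENR-plus, Spink4 stood at 328 and 158 CPM against 1359 and 226 CPM, where the high value was that of replicate 1. Reg4 stood there at 163 and 85.7 CPM against 498 and 49.2 CPM.

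The difference between the regions in the response to Cdx2-sgRNA was tested itself. In WENR-minus it was called for 8 of the 9 genes, all more negative in proximal organoids, where 9.08% of all genes were called in that direction, 5.17% in the other and 14.3% in either. It was -7.56 ± 0.95 for Fcgbp (adjusted p = 0.000437), -8.48 ± 1.19 for Tff3 (adjusted p = 0.000895) and -8.00 ± 1.25 for Klk1 (adjusted p = 0.00176). It was -7.67 ± 1.49 for Zg16, -6.86 ± 1.42 for Spink4, -6.29 ± 1.5 for Clca1 and -5.22 ± 1.22 for Agr2, with adjusted p between 0.00562 and 0.016. For Reg4 it was -4.91 ± 1.94 (adjusted p = 0.106), and -4.73 with the replicate block (adjusted p = 0.031). The weakest value of Reg4 with 1 library left out was -2.29. The fitted value of Tpsg1 rests on a group with at most 2 reads.
In WENR-minus, Clca1 lost its call without distal Cdx2-sgRNA replicate 1 (-5.27, adjusted p = 0.0512), without distal Scramble-sgRNA replicate 2 (-5.76, adjusted p = 0.0804) and without proximal Cdx2-sgRNA replicate 2 (-5.81, adjusted p = 0.0691). Agr2 lost it without distal Cdx2-sgRNA replicate 1 (-4.0, adjusted p = 0.0549) and without distal Scramble-sgRNA replicate 2 (-5.04, adjusted p = 0.0717).

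In WENR-plus the difference between regions was called for 6 genes (3.76% of all genes in that direction, 1.22% in the other, 4.98% in either). It was -7.06 ± 1.1 for Tff3 (adjusted p = 0.00375), -5.43 ± 0.91 for Fcgbp (adjusted p = 0.00581) and -7.46 ± 1.43 for Spink4 (adjusted p = 0.0117). It was -5.56 ± 1.16 for Klk1 and -5.53 ± 1.23 for Agr2 (adjusted p = 0.0181 and 0.0244), and the sixth gene was Tpsg1. Clca1, Zg16 and Reg4 had -1.99, -1.31 and -4.92 (adjusted p = 0.471, 0.642 and 0.155). With 1 library left out they ran from -4.31 to -0.144, from -3.28 to 1.11 and from -6.1 to -2.42. Only Tff3 and Fcgbp stayed called whichever of the 8 libraries was left out. Without proximal Cdx2-sgRNA replicate 2 or without distal Scramble-sgRNA replicate 2, 2 of the 6 calls were left, and Spink4 then had -7.00 and -7.05 (adjusted p = 0.0603 and 0.0673), Tpsg1 an adjusted p of 0.0743 and 0.0618, Agr2 -4.88 and -5.27 (adjusted p = 0.0884 and 0.106) and Klk1 -5.22 and -4.96 (adjusted p = 0.0846 and 0.0644). Agr2 and Klk1 also lost their calls without distal Cdx2-sgRNA replicate 1 (-4.68 and -4.15, adjusted p = 0.0836 and 0.0624) and without proximal Scramble-sgRNA replicate 2 (-5.23 and -5.33, adjusted p = 0.0679 and 0.0522), and Agr2 without distal Scramble-sgRNA replicate 1 (-5.86, adjusted p = 0.0623).

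The second question was how the products responded to 3 days without Wnt3a, EGF, Noggin and R-spondin 1. In proximal Scramble-sgRNA organoids, 3 of the 9 genes rose in WENR-minus and none fell, where 8.73% of all genes were called higher, 8.24% lower and 17.0% in either direction. Those 3 were the proteins of the mucus gel. Clca1 rose from 11.1 and 13.5 CPM to 974 and 1094 CPM (log2 fold change 6.39 ± 1.23, adjusted p = 0.00322). Zg16 rose from 9.03 and 13.8 CPM to 1013 and 831 CPM (6.34 ± 1.16, adjusted p = 0.00242), and Fcgbp from 253 and 288 CPM to 2413 and 3227 CPM (3.38 ± 0.66, adjusted p = 0.00329).

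Klk1 (log2 fold change 1.91, adjusted p = 0.07), Tff3 (1.63, adjusted p = 0.0721) and Tpsg1 (1.47, adjusted p = 0.139) lay higher in both WENR-minus libraries than in both WENR-plus libraries, and did not pass the test. With the replicate number as a block, Klk1 (1.89, adjusted p = 0.0215) and Tff3 (1.64, adjusted p = 0.0163) passed, which made 5 calls. A fit to these 4 libraries alone made 6, with Tpsg1 added (1.46, adjusted p = 0.0125). Spink4 stood at 136 and 289 CPM in WENR-minus and at 146 and 282 CPM in WENR-plus, so its level was near equal within each replicate number, with ratios of 0.934 and 1.02. Agr2 had ratios of 1.67 and 1.5, and Reg4 of 0.562 and 0.634.

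In distal Scramble-sgRNA organoids, 4 genes rose in WENR-minus and none fell (12.2% of all genes called higher, 14.2% lower, 26.4% in either direction). Clca1 rose from 130 and 14.4 CPM to 4461 and 1753 CPM (log2 fold change 5.42 ± 1.17, adjusted p = 0.00346). Zg16 rose from 81.2 and 11.6 CPM to 2202 and 1050 CPM (5.13 ± 1.09, adjusted p = 0.0031), and Fcgbp from 393 and 214 CPM to 2548 and 1934 CPM (2.88 ± 0.64, adjusted p = 0.00407). Tff3 was the fourth, from 43.1 and 19.5 CPM to 149 and 66.5 CPM (1.78 ± 0.63, adjusted p = 0.0418). Its call was lost without WENR-minus replicate 1 (1.08, adjusted p = 0.297) and without WENR-plus replicate 2 (1.41, adjusted p = 0.216). Reg4 lay lower in WENR-minus, at 34.9 and 17.0 CPM against 163 and 85.7 CPM, with groups that did not overlap (-2.26 ± 1.16, adjusted p = 0.143, and -2.30 with the replicate block, adjusted p = 0.033). Klk1 had 1.68 (adjusted p = 0.0833), 1.75 with the replicate block (adjusted p = 0.022), 2.83 without WENR-plus replicate 1 (adjusted p = 0.0353) and 0.94 without WENR-minus replicate 1 (adjusted p = 0.445).

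In distal Cdx2-sgRNA organoids the same 3 mucus gel genes were called higher in WENR-minus (14.9% of all genes called higher, 18.1% lower, 33.1% in either direction). Zg16 rose from 65.8 and 6.87 CPM to 1541 and 688 CPM (log2 fold change 4.94 ± 1.08, adjusted p = 0.00283). Clca1 rose from 359 and 58.3 CPM to 6046 and 1975 CPM (4.26 ± 1.11, adjusted p = 0.00788), and Fcgbp from 1187 and 286 CPM to 5301 and 2270 CPM (2.36 ± 0.63, adjusted p = 0.009). Clca1 lost its call without WENR-plus replicate 2 (3.51) and Fcgbp without WENR-minus replicate 1 (1.63). In an edgeR fit to the compared libraries alone Fcgbp lost it as well (2.33, adjusted p = 0.0559). Without WENR-plus replicate 1, Fcgbp had 3.79. Klk1 (1.45, adjusted p = 0.118) had 2.90 without that library and 0.65 without WENR-minus replicate 1. It had 1.55 with the replicate block (adjusted p = 0.0321).

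In proximal Cdx2-sgRNA organoids none of the 9 genes was called between the media, where 3.42% of all genes were called higher, 2.98% lower and 6.40% in either direction. None had an unadjusted p under 0.05 or was called by DESeq2. Clca1 stood at 23.9 and 10.5 CPM in WENR-minus against 12.1 and 5.81 CPM in WENR-plus, with groups that overlapped (log2 fold change 0.94 ± 1.03). Zg16 stood at 4.15 and 2.17 against 3.94 and 3.28 CPM. For Tpsg1, at most 2 reads in any of the 4 libraries, no fold change is given. Tff3, Klk1 and Reg4 had at most 20 reads in any of them, and the SE of the 9 values ran from 0.62 to 2.02, so for these 4 genes only large changes could have been detected. The response of proximal organoids to the medium differed between the guides (Cdx2-sgRNA less Scramble-sgRNA) for Zg16, at -6.55 ± 1.52 (adjusted p = 0.0395), where 1.93% of all genes were called in that direction, 1.67% in the other and 3.60% in either. Clca1 had -5.45 ± 1.5 (adjusted p = 0.0639), and -5.49 with the replicate block (adjusted p = 0.0182). Fcgbp had -2.65 ± 0.87 (adjusted p = 0.108). DESeq2 called Zg16, Clca1 and Fcgbp. The call of Zg16 was lost in 7 of the 8 fits that left out 1 library, with a log2 value of -7.08 to -6.17 over all 8, and kept only without WENR-minus Scramble-sgRNA replicate 2. In distal organoids the same contrast called none of the 9, with 0.00% of all genes called, none of the 9 at an unadjusted p under 0.05 and none by DESeq2. The medium effect in proximal minus that in distal Scramble-sgRNA organoids also called none of the 9 (0.0719% of all genes, 0.0327% higher and 0.0392% lower), with log2 values from -0.33 (Spink4) to 1.5 (Reg4).

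**Figure D4:**
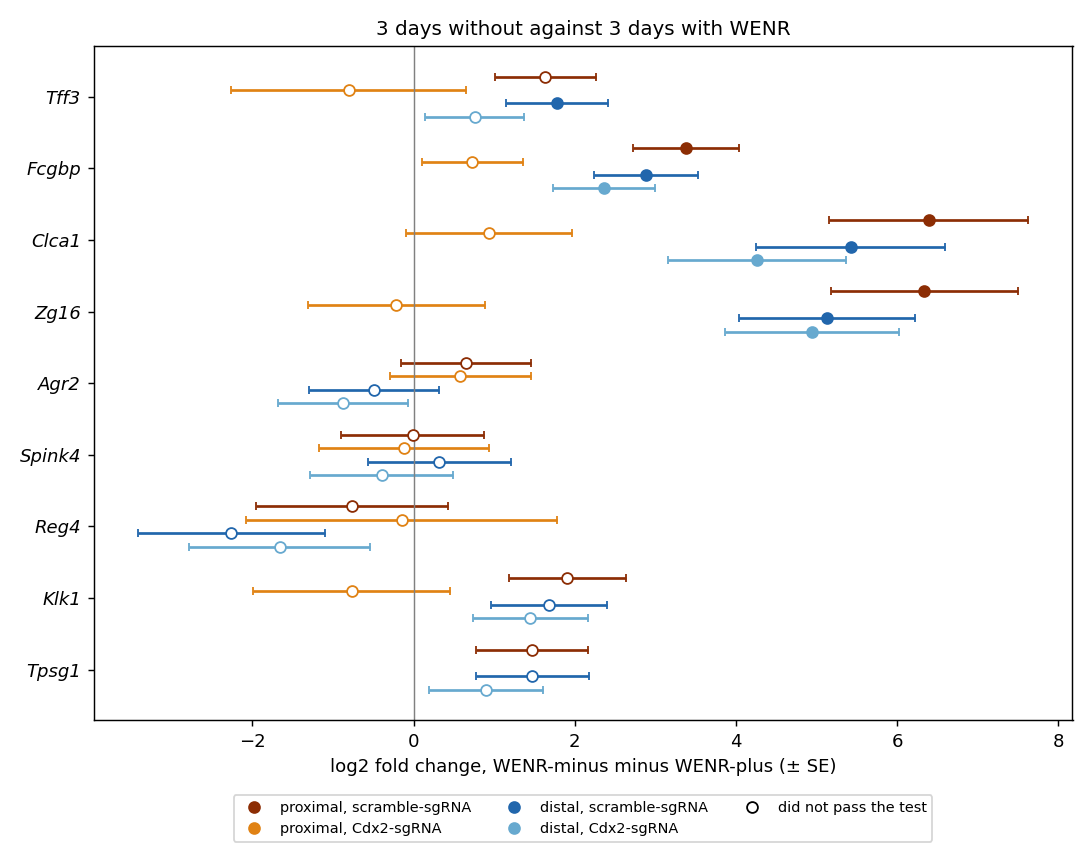
Log2 fold change ± SE of WENR-minus against WENR-plus for the 9 tested genes in 4 kinds of organoids, with filled circles for genes that passed the test and open ones for those that did not (Tpsg1 is not drawn for proximal Cdx2-sgRNA organoids, where it had at most 2 reads). Clca1, Zg16 and Fcgbp lie between 2.36 and 6.39 in the other 3 kinds of organoids and between -0.22 and 0.94 in proximal Cdx2-sgRNA organoids.

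The third question was whether the regions differed. Between proximal and distal Scramble-sgRNA organoids none of the 9 genes was called. Of all genes, 6.08% were called in WENR-minus (2.88% higher, 3.20% lower) and 1.75% in WENR-plus (0.680% higher, 1.07% lower), and DESeq2 called none of the 9. Before adjustment, 0 of the 9 in WENR-minus and 2 in WENR-plus had p under 0.05. Reg4 lay lowest in proximal organoids in both media and its groups did not overlap, at 6.69 and 5.21 against 34.9 and 17.0 CPM in WENR-minus (log2 fold change -2.12 ± 1.2, adjusted p = 0.289) and at 11.9 and 8.22 against 163 and 85.7 CPM in WENR-plus (-3.62 ± 1.23, adjusted p = 0.191). With the replicate block, Reg4 passed in WENR-plus (-3.57, adjusted p = 0.0469). In a fit to the libraries of these groups alone it passed in both media, with adjusted p = 0.035 and 0.0169. Clca1 in WENR-plus, at 11.1 and 13.5 against 130 and 14.4 CPM, had -2.55 ± 1.05 (adjusted p = 0.292), and without distal replicate 1 it had -0.24.

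Between proximal and distal Cdx2-sgRNA organoids all 9 tested genes were lower in proximal ones in both media, where 16.5% of all genes were called lower in WENR-minus (18.1% higher, 34.6% in either direction) and 9.57% in WENR-plus (7.40% higher, 17.0% in either direction). In WENR-minus the log2 fold changes ran from -8.69 (Klk1) to -4.74 (Agr2), with a median of -7.63 beside 0.132 over all genes. With Tpsg1 set at 3 reads (71.0-fold lower) the median was -7.37. Reg4 reached its call here, at 1.48 and 0 CPM against 159 and 14 CPM (-7.03 ± 1.59, adjusted p = 0.00376). Without distal replicate 1 it had -4.41 and was still called, and without proximal replicate 1 the library left held 0 reads, so that no fold change is given. In WENR-plus the log2 fold changes ran from -8.54 (Reg4) to -3.33 (Zg16), with a median of -6.32, or -6.19 with Tpsg1 set at 3 reads (43.7-fold lower). Clca1 (-4.55, adjusted p = 0.0127) lost its call in WENR-plus without distal replicate 1 (-2.67, adjusted p = 0.109) and without proximal replicate 2 (-4.12, adjusted p = 0.0943). Zg16 (adjusted p = 0.0352) lost it without distal replicate 1 (-0.89, adjusted p = 0.551), without proximal replicate 1 (-3.48, adjusted p = 0.112) and without proximal replicate 2 (-3.20, adjusted p = 0.16). These comparisons share libraries with those of the guides.

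Ordered by mean TPM in distal Scramble-sgRNA organoids in WENR-minus, Zg16 (3797 ± 1809, SD, n = 2) stood above Spink4 (1675 ± 656), Clca1 (990 ± 559), Fcgbp (786 ± 90.9), Agr2 (636 ± 90.2), Tff3 (432 ± 233), Klk1 (307 ± 164), Reg4 (35.0 ± 15.6) and Tpsg1 (27.1 ± 1.76), with Retnlb at 0. From Zg16 down to Klk1, each gene lay within the summed SD of its neighbour, and so did Reg4 and Tpsg1. Within each of the 2 libraries the order was the same, except that Clca1 (1385 and 595 TPM) and Fcgbp (851 and 722 TPM) changed places, as did Reg4 (46.1 and 24.0 TPM) and Tpsg1 (28.4 and 25.9 TPM). No test of the order was made.

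Muc2, the mucin that these products accompany, was lower with Cdx2-sgRNA in proximal organoids as well. It stood at 1240 and 1395 CPM in proximal Scramble-sgRNA WENR-minus libraries and at 4.15 and 2.64 CPM with Cdx2-sgRNA (log2 fold change -8.61 ± 1.00, adjusted p = 0.000102). In WENR-plus it was also lower with Cdx2-sgRNA (-5.97 ± 0.89, adjusted p = 0.000874), and in distal organoids it was not called (0.32 and -0.47). Its distal ratios of Cdx2-sgRNA to Scramble-sgRNA in WENR-plus were 1.16 and 0.192 within replicate numbers. Between the media Muc2 was called higher in WENR-minus in proximal Scramble-sgRNA organoids (2.32, adjusted p = 0.0352). That call was lost whichever library was left out (1.86 to 3.14).

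Other goblet cell genes and regulators were read from lists written for this tissue. Of 20 tested other goblet cell genes, 8 were lower and 3 higher with Cdx2-sgRNA in proximal WENR-minus organoids, and 9 lower and 0 higher in WENR-plus. Of all genes, 12.1% were called lower and 9.04% higher there in WENR-minus, and 8.95% lower and 6.93% higher in WENR-plus. In distal organoids 1 and 0 were lower and none higher, beside 3.00% and 0.124% of all genes lower and 2.24% and 0.137% higher. Fut2, a fucosyltransferase that was the second most abundant of that list, had -0.87 (adjusted p = 0.166) in proximal WENR-minus. Of 10 regulators of the secretory lineage, 5 were lower and 0 higher in proximal WENR-minus, 5 lower and 1 higher in WENR-plus, and none was called in distal organoids. The 2 most abundant, Klf4 (-0.25, adjusted p = 0.564) and Xbp1 (-0.12, adjusted p = 0.756), were not called in proximal WENR-minus. In WENR-plus the one higher was Xbp1, at 1.72 ± 0.26 (adjusted p = 0.000935).

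Atoh1, the factor that commits cells to the secretory lineage, and Spdef, which drives goblet cell maturation, were picked out after their values were seen. Atoh1 stood at 24.4 and 28.3 CPM in proximal Scramble-sgRNA WENR-minus libraries and at 0.223 and 0.211 CPM with Cdx2-sgRNA (-6.88 ± 0.77, adjusted p = 8.09e-05). Spdef stood at 32.3 and 46.9 against 0.445 and 2.64 CPM (-4.60 ± 1.00, adjusted p = 0.00526). Between the media in Scramble-sgRNA organoids neither was called, with -0.29 for Atoh1 and 0.12 for Spdef in proximal ones. Klf4, a factor of goblet cell differentiation that is also made in surface colonocytes, rose in WENR-minus in those organoids (2.63 ± 0.32, adjusted p = 0.00036).

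Genes of other cell types moved in the same comparisons, and their part in the results was not tested. With Cdx2-sgRNA in proximal WENR-minus, 6 of 8 absorptive colonocyte genes and 6 of 7 tested enteroendocrine genes were lower and none higher. The summed enteroendocrine genes held 142 to 227 CPM in the controls and 0.899 to 2.00 CPM with Cdx2-sgRNA. In WENR-plus 4 colonocyte genes were lower and 1 higher, and 4 enteroendocrine genes lower and none higher. Of the 6 tuft cell genes only 2 were tested, and they went the other way, with 1 higher in WENR-minus and 2 in WENR-plus and none lower. Their list summed to 2.67 to 10 CPM with Cdx2-sgRNA against 0 to 0.312 CPM in WENR-minus, and to 4.81 to 28.1 against 0.0478 to 0.651 CPM in WENR-plus. Of 4 tested Paneth cell genes, 2 were lower and none higher in WENR-minus, and 1 was lower and 1 higher in WENR-plus, where their list summed to 716 to 1040 CPM against 34.3 to 106 CPM. Most of that sum was the protease Mmp7, the gene that was higher, at 716 and 1030 CPM with Cdx2-sgRNA, while the median log2 fold change of the 4 genes was -2.06. Of 6 stem cell genes 1 was higher and 1 lower in each medium, and of 6 proliferation genes 1 was higher in WENR-minus and 2 lower in WENR-plus. Counts as small as these were not told apart from the shares of all genes. In WENR-minus against WENR-plus in proximal Scramble-sgRNA organoids, 7 of 8 colonocyte genes and 5 of 7 enteroendocrine genes were higher, and 4 of 6 stem cell and 5 of 6 proliferation genes lower. Of all genes, 8.73% were called higher and 8.24% lower there. The colonocyte sum was 6850 to 10100 CPM against 215 to 272 CPM.

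Tpsg1 belongs to a family best known from mast cells. Of 10 mast cell genes 3 were tested, and Cpa3, Tpsab1, Ms4a2 and Fcer1a had no read in any library, while Tpsb2 had at most 2. The summed list ran from 1.32 to 1340 CPM over the 16 libraries. Its most abundant genes were Cma1, up to 1190 CPM in distal Cdx2-sgRNA WENR-plus replicate 1, and Kit, which is also made by epithelial cells that neighbour the stem cells.

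Near copies could split reads in 2 of the genes. Of the 31-base words of the main Klk1 transcript, 47.1% also occur in other genes, most of them in Klk1b5, yet the 23 Klk1b genes and pseudogenes together held 189 reads over all libraries beside 22220 for Klk1. For Fcgbp, 15.7% of the words are shared with 9530053A07Rik, which held 384 reads beside 300448. The other 8 genes shared none. Of the Fcgbp reads 84.3% were assigned to one full-length transcript and 14.2% to a shorter one of 931 bases, and of the Tpsg1 reads 73.3% and 20% to 2 transcripts. The related trefoil genes Tff1 and Tff2 reached at most 75 and 54 reads in a library.

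The genes did not all vary alike. Over the 16 libraries, the log2 CPM of Clca1 and Zg16 had Pearson r = 0.964, and over the 12 libraries other than proximal Cdx2-sgRNA r = 0.953. Agr2 and Fcgbp had r = 0.818 over 16 libraries and 0.0744 over those 12, and Reg4 and Tff3 had 0.777 and -0.0996. These values describe libraries in 8 groups and share the low proximal Cdx2-sgRNA libraries, and no test was made. Among 12525 tested genes with a mean of at least 1 CPM, the one outside the set most like Fcgbp was Ms4a12 (r = 0.991). For Clca1 it was Tbc1d20 (0.980), for Zg16 Cog6 (0.985) and for Agr2 Fam174b (0.978). For Spink4 it was Hepacam2 (0.970), for Reg4 Pla2g2f (0.965), for Tff3 Plcl2 (0.984), for Klk1 Chga (0.986) and for Tpsg1 Xpnpep2 (0.982). Over the 12 libraries Clca1 and Tbc1d20 had r = 0.980, and Spink4 and Hepacam2 had 0.701.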

How the data were processed

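Stranded libraries of total RNA were read as pairs. The authors ran Salmon 1.1.0 on GENCODE vM23 transcripts, and the deposited values are its expected counts (each an estimated count per transcript), unscaled between libraries. The deposited TPM values and lengths, from the same Salmon run of the authors, were used for levels between genes and for length-scaled counts. Of 140748 transcripts, 139864 were matched to GENCODE vM21 (GRCm38) and summed to 54123 genes. The other 884 held 0.257 to 0.509% of a library's counts. Mitochondrial ribosomal RNA took 15.4 to 28.0%.

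Counts were rounded, filtered by filterByExpr (15289 genes), scaled by TMM and fitted over all 16 libraries, 1 coefficient per group, with edgeR 4.0.16 glmQLFit (prior count 0.125, 8 residual degrees of freedom) in R 4.3.3. A gene was called where its Benjamini-Hochberg adjusted p was under 0.05 with a log2 fold change beyond 1 in size. There were 12 comparisons of groups and 5 contrasts between effects. The SE is the log2 fold change over the root of F. Groups with at most 3 reads in each library were set to 3 reads for bounds. The fit was tested on simulated data. DESeq2 1.42.0 was an alternative.

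The genes and lists were chosen with earlier results of these data known. The text names the 10 genes, Cdx2, Muc2, the most abundant list genes, marker genes of other cell types, near copies and, for each gene, the most similar other gene, with Atoh1 and Spdef added after their values were seen. Methods name independent mice as replicates. Deviations of replicate 1 correlated at -0.0593 to 0.589 over 28 pairs of groups (median 0.0729). The replicate block, other scalings, filters, fits and left-out libraries were tried.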

Additional observations from a re-analysis of the deposited data

Results flagged for a closer look

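The response to Cdx2-sgRNA differed between proximal and distal organoids, by the test of the difference itself, in 8 of the 9 tested genes in WENR-minus (14.3% of all genes, 9.08% in the same direction) and in 6 in WENR-plus (4.98% and 3.76%). Calls were lost in both media when 1 library was left out, as given with the results. Most were lost in WENR-plus without proximal Cdx2-sgRNA replicate 2 or without distal Scramble-sgRNA replicate 2. In WENR-minus the log2 difference (proximal minus distal) was -8.48 for Tff3, -8.09 for Tpsg1, -8.00 for Klk1, -7.67 for Zg16, -7.56 for Fcgbp, -6.86 for Spink4, -6.29 for Clca1 and -5.22 for Agr2. In WENR-plus it was -7.46 for Spink4, -7.06 for Tff3, -6.79 for Tpsg1, -5.56 for Klk1, -5.53 for Agr2 and -5.43 for Fcgbp. The values of Tpsg1 come from a group with at most 2 reads in a library, depend on the prior count of the fit and are no bounds.

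The response of Zg16 to WENR-minus in proximal organoids differed between the guides, with a log2 difference of -6.55 (Cdx2-sgRNA minus Scramble-sgRNA), where 3.60% of all genes were called, 1.93% in that direction. The call was lost in 7 of the 8 fits that left out 1 library. Groups of 2 libraries were too small for a search for libraries that stand apart.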

How the results depend on the processing

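With 2 libraries per group, the spread behind the p-values was pooled over the 8 groups and moderated across genes, and depth limits what can be said of Retnlb, with at most 6 reads in a library. DESeq2 size factors in edgeR, length-scaled counts and leaving out mitochondrial genes changed no call among the results tested for the 9 genes and Muc2, and calls of other named genes were not retested. Where counts of called genes moved, the cause was not tested, except that a filter of at least 10 counts in every library left 5 of the genes to test. Under that filter 5 (WENR-minus) and 3 (WENR-plus) were called with Cdx2-sgRNA in proximal organoids, 5 and 5 between regions with Cdx2-sgRNA, 5 and 3 for the difference of the guide effect between regions, and 2 for the difference of the medium effect between guides in proximal organoids, where it called 17.5% and 12.3%, 33% and 12.9%, 16.3% and 4.18%, and 7.59% of all genes. With no filter 9 and 8 were called with Cdx2-sgRNA in proximal organoids (14% and 11.3% of all genes), with Reg4 added in WENR-minus and Zg16 and Reg4 in WENR-plus. The guide effect between regions was then called for 9 in each medium (11.6% and 6.79% of all genes), with Reg4 added in WENR-minus and Clca1, Zg16 and Reg4 in WENR-plus. With no filter 1 and 4 were called with Cdx2-sgRNA in distal organoids, 6, 7 and 5 between media in proximal Scramble-sgRNA, distal Scramble-sgRNA and distal Cdx2-sgRNA organoids, 2 and 3 between regions with Scramble-sgRNA, 5 and 1 for the difference of the medium effect between guides in proximal and distal organoids, and 3 for its difference between regions. That fit called, of all genes, 5.58% and 2.14% with Cdx2-sgRNA in distal organoids, 5.9% and 3.79% between regions with Scramble-sgRNA, 5.82% and 1.29% for the medium effect between guides and 1.66% for its difference between regions, and 11.3%, 16.4% and 20.2% between media in the same 3 kinds of organoids.

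With the replicate block, 5 genes were called between media in proximal Scramble-sgRNA organoids, 1 between regions with Scramble-sgRNA in WENR-plus and 2 for the medium effect between guides in proximal organoids (17.9%, 2.28% and 5.42% of all genes). The block changed no call of the 10 genes beyond those given with the results. Fits to the compared libraries alone gave 6, 1 (WENR-minus), 1 (WENR-plus) and 2 in the same order (19.7%, 6.52%, 1.93% and 0.558% of all genes), and DESeq2 gave 3 for the last (7.63% of all genes). In fits to the compared libraries alone, the calls of Fcgbp between media in distal Cdx2-sgRNA organoids (2.33, adjusted p = 0.0559), of Clca1 (-4.52, adjusted p = 0.0509) and Zg16 (-3.30, adjusted p = 0.103) between regions with Cdx2-sgRNA in WENR-plus and of Klk1 for the guide effect between regions in WENR-plus (-5.53, adjusted p = 0.0569) were lost, while Zg16 (-1.60, adjusted p = 0.0348) and Reg4 (-3.71, adjusted p = 0.025) were called with Cdx2-sgRNA in proximal WENR-plus organoids and Reg4 (-2.22, adjusted p = 0.00824) and Tpsg1 (1.51, adjusted p = 0.00806) between media in distal Scramble-sgRNA organoids. DESeq2 called Tff3 between media in proximal Scramble-sgRNA organoids (1.64, adjusted p = 0.0294). Leaving out 1 library gave 3 to 5 calls between media in distal Scramble-sgRNA and 2 to 5 in distal Cdx2-sgRNA organoids, 7 to 9 between regions with Cdx2-sgRNA in WENR-plus, 6 to 8 and 2 to 6 for the guide effect between regions in WENR-minus and WENR-plus, and 0 to 1 for the medium effect between guides in proximal organoids. The guide effect between regions in WENR-plus ran from -3.28 to 1.11 for Zg16 and changed sign only without distal Cdx2-sgRNA replicate 1. The calls of lower genes with Cdx2-sgRNA in proximal organoids held whichever library was left out.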
